A study of Homo sapiens with 4 samples.

Results

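Tripartite motif (TRIM) proteins are a large family of mostly RING-type ubiquitin ligases, and the peaks of N6-methyladenosine (m6A) listed on their RNAs are described here. The genes were taken by name, as every entry of the deposited peak lists whose symbol was TRIM followed by a number and at most 1 letter. This gave 35 genes of the 12792 with any peak. They held 92 of 24626 peaks in the shALKBH5 list and 85 of 22448 in the shNC list. RPMI-8226, an established human multiple myeloma line, was transduced with 1 of 2 lentiviruses. The shALKBH5 virus targets ALKBH5, an eraser enzyme that takes m6A off RNA, and the other is the one labelled shNC. Both groups grew in the same serum-containing medium. Poly(A) RNA of each was sequenced before (input) and after (IP) enrichment with an anti-m6A antibody, so the 4 libraries gave 1 IP and 1 input per condition. No value has a replicate, no p-value between conditions was computed, and a difference between the lists is one between these pairs of libraries. The tables hold peaks and no read counts, so depth is unknown and the degree of ALKBH5 knockdown was not measured here.

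A TRIM protein is built from a RING finger that recruits an E2 ubiquitin-conjugating enzyme, 1 or more B-box zinc fingers and a coiled coil through which it dimerises, followed by a C-terminal domain that sorts the family into classes and binds the target. Many members act in antiviral and inflammatory signalling, and others act in transcription, membrane repair, the cytoskeleton or protein quality control. m6A is written on messenger RNA mainly in long exons and around stop codons, and reader proteins bound to it influence splicing, translation and decay of the RNA. A listed peak needs both RNA and enrichment by the antibody, so a gene without one may be unexpressed, unmethylated or too thinly covered. Fold stands for IP signal divided by input signal in a peak and p is the peak's own p-value. Both are the values of the authors' deposited tables and describe or rank peaks within 1 list.

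Of the 35 genes, 32 (91.4%) were listed for both conditions, 3 for shALKBH5 alone (8.57%, exact 95% interval 1.8 to 23.1%) and 0 for shNC alone. Over all genes with a peak, 83.0% were listed for both, 11.5% for shALKBH5 alone and 5.5% for shNC alone. For the 0 shNC-only genes an approximate upper limit, 3 counts over the 35 genes, is a share of 8.57%, which includes that background. RefSeq holds 75 genes whose symbols fit the naming rule, 73 of them protein coding, and 40 of the 75 had no listed peak. The authors' descriptions name a RING finger for 32 of the 35 genes, a B-box for 33 and a SPRY domain for 21. TRIM16 and TRIM44, which have B-boxes but no RING, and TRIM16L, a shortened relative of TRIM16, were the 3 without a RING. The description of TRIM69 named no B-box, and neither did that of TRIM16L.

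Where a peak reached the first transcribed bases, the RefSeq sequence around the gene start (GRCh38.p14) shows which bases lay under it. Windows from 250 bases before to 50 after the start were available for 25 of the 35 genes, and those of 4 genes shared bases with a peak of the gene. Each line below gives the 60 bases before the start and the first 30 transcribed bases, 5′ to 3′ on the gene's strand, with the bases under a peak of either list in capitals.
TRIM26 (chr6:30213377-30213466, minus strand): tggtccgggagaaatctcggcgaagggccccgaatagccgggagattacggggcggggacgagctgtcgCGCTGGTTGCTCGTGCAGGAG
TRIM39 (chr6:30326409-30326498, plus strand): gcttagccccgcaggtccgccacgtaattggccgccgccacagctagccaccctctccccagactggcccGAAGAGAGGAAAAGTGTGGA
TRIM65 (chr17:75896922-75897011, minus strand): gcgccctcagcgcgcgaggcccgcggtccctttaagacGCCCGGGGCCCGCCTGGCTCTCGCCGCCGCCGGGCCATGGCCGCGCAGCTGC
TRIM73 (chr7:75395569-75395658, plus strand): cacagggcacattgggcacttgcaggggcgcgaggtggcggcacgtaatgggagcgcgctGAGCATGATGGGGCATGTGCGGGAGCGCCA
TRIM39 had a second window, and the more upstream one is shown. The TRIM26 peak stood only in the shALKBH5 list and covered 41 bases of the full window there and 0 in the shNC list. The TRIM39, TRIM65 and TRIM73 peaks stood in both lists. They covered 40 bases of the window for TRIM39 in each list, 72 for TRIM65 in each list, and 134 in the shALKBH5 list against 164 in the shNC list for TRIM73. The TRIM73 peak was spliced, with its 5′ edge at -446 bp from the gene start. Its first block, 75395183 to 75395503, lay wholly before the start in both lists. The second ran from 75395629 to 75395637 in the shALKBH5 list and to 75395667 in the shNC list. The TRIM73 capitals past 75395637 thus lay under the shNC peak only. The letters GGAC, the core of the usual m6A consensus, were searched on both strands of the whole 300-base windows. On the gene's strand they occurred 2 times for TRIM26, 1 time for TRIM39, 0 times for TRIM65 and 2 times for TRIM73, and 66.3% of all 35116 RefSeq windows held them on that strand and 87.4% on either. In the 50 transcribed bases they occurred 1 time for TRIM26 and 0 times for the other 3 genes, against 18.9% of all windows. A match describes these letters only.

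The number of peaks per gene ran from 1 to 8 (median 3) in the shALKBH5 list and from 1 to 8 (median 2) in the shNC list, against a median of 2 over all genes in each. Genes with 4 or more peaks numbered 9 of 35 in the shALKBH5 list (25.7%; 12.4% of all genes) and 8 of 32 in the shNC list (25.0%; 11.4% of all genes). Some of these rows describe the same bases, since the lists carry overlapping peaks for TRIM33, TRIM47 and TRIM52. Peaks named for other genes also shared bases with peaks of TRIM11 (AL670729.2), TRIM16 (AC005324.3 and AC005324.5), TRIM25 (AC015912.1), TRIM38 (U91328.2) and TRIM47 (AC087289.5). At TRIM5 the shared site had such an overlap (AC104389.4), and further cases are named below. Joined wherever they shared a base, all peaks formed 93 sites, of which 65 were shared, 18 belonged to shALKBH5 alone and 10 to shNC alone. Of the 32 genes listed for both conditions, 20 had the same number of peaks in each, 7 had more in the shALKBH5 list and 5 more in the shNC list. In 18 genes every site was shared.

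**Figure D1:**
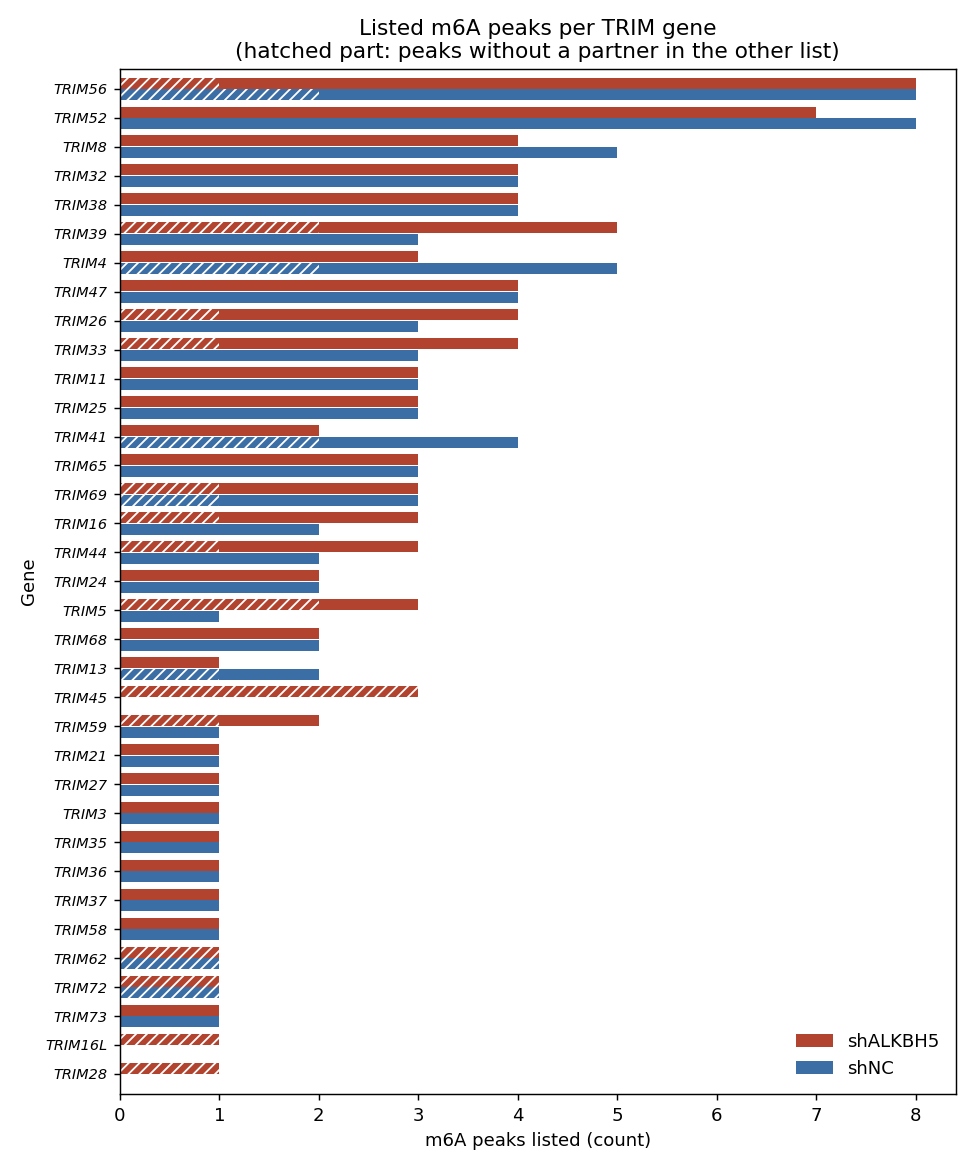
Number of listed m6A peaks (horizontal axis, count) for each of the 35 TRIM genes, with shALKBH5 above shNC and the hatched part marking peaks that share no base with a peak of the other list. TRIM56 has 8 peaks in each list, and TRIM45, TRIM16L and TRIM28 have none in the shNC list.

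Of the TRIM peaks, 18 of 92 in the shALKBH5 list (19.6%, exact 95% interval 12 to 29.1%) and 10 of 85 in the shNC list (11.8%, 5.79 to 20.6%) shared no base with a peak of the other list, called here a partner. The same shares over all peaks were 19.8% (shALKBH5) and 12.6% (shNC), so the family stood near the background in both lists. Intervals cover counting error only, and peaks of 1 gene are not independent. The TRIM peaks without a partner had a median log10 p of -4.84 in the shALKBH5 list and -3.88 in the shNC list, whereas those with a partner had -30.1 (shALKBH5) and -25.0 (shNC). Only 2 TRIM peaks without a partner had a log10 p below -10, those of TRIM28 and TRIM16L in the shALKBH5 list, and 0 did in the shNC list. Requiring overlap of 50% of the bases of both peaks raised the partnerless TRIM peaks to 26 in the shALKBH5 list and 18 in the shNC list. No share over all peaks stands beside these counts, so whether the rise is particular to the family is not shown.

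The 3 genes of the shALKBH5 list alone differed in kind. TRIM28, known as KAP1, is the corepressor that KRAB zinc finger proteins recruit to silence retroelements. It lies on chromosome 19 from 58544064 to 58550715 (ENSG00000130726, plus strand). It had 1 peak of 300 bases in the shALKBH5 list, made of a 2-base block at 58544210 to 58544211 and a longer block at 58544457 to 58544754, and none in the shNC list. Its p was strong, with a log10 p of -44.6 that exceeded 71.7% of all peaks of that list in strength, while its fold of 1.77 exceeded only 3.99% of them. When a peak had to have at least 2 times the smallest fold in its list, TRIM28 had none.

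TRIM45, which carries a filamin-type domain and restrains MAP kinase signalling, had 3 shALKBH5 peaks in a gene of 12868 bases on chromosome 1 (117111060 to 117123927, minus strand, ENSG00000134253). From 5′ to 3′ they lay at 117120996 to 117121265, 117118182 to 117118541 and 117112256 to 117112376, with folds of 19, 24.4 and 12.7. Their log10 p values were only -4.84, -6.41 and -3.03. The exact pairs of fold and p of these TRIM45 peaks were shared by 72, 36 and 164 other peaks of the list. Over the list, 11.5% of peaks shared their pair with 10 or more others, against 5 of the 92 TRIM peaks (5.43%) there and 6 of 85 (7.06%) in the shNC list, where all peaks gave 10.4%. The shNC ones were at TRIM13, TRIM3, TRIM41, TRIM5, TRIM69 and TRIM72, and the remaining shALKBH5 ones at TRIM4 and TRIM72. No read counts show how many reads stand behind such pairs.

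TRIM16L, on chromosome 17 from 18697998 to 18736112, had 1 shALKBH5 peak at 18735073 to 18735551 near its 3′ end, with a fold of 39.8, above 98.7% of the list, and a log10 p of -11.2. TRIM16L closely resembles part of TRIM16, so reads may be split between these related genes and the TRIM16L call is uncertain. TRIM16 itself, which has ligase activity without a RING, had 3 shALKBH5 peaks and 2 shNC peaks. Its spliced peak had folds of 8.92 in the shALKBH5 list and 12.8 in the shNC list, with log10 p values of -12.2 (shALKBH5) and -14.4 (shNC). The peak at 15628740 had folds of 4.44 (shALKBH5) and 3.49 (shNC) and log10 p values of -12.6 (shALKBH5) and -8.17 (shNC). A further TRIM16 peak at 15628500 to 15628620, with a fold of 6.33 with a log10 p of -4.85, stood in the shALKBH5 list alone.

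**Figure D2:**
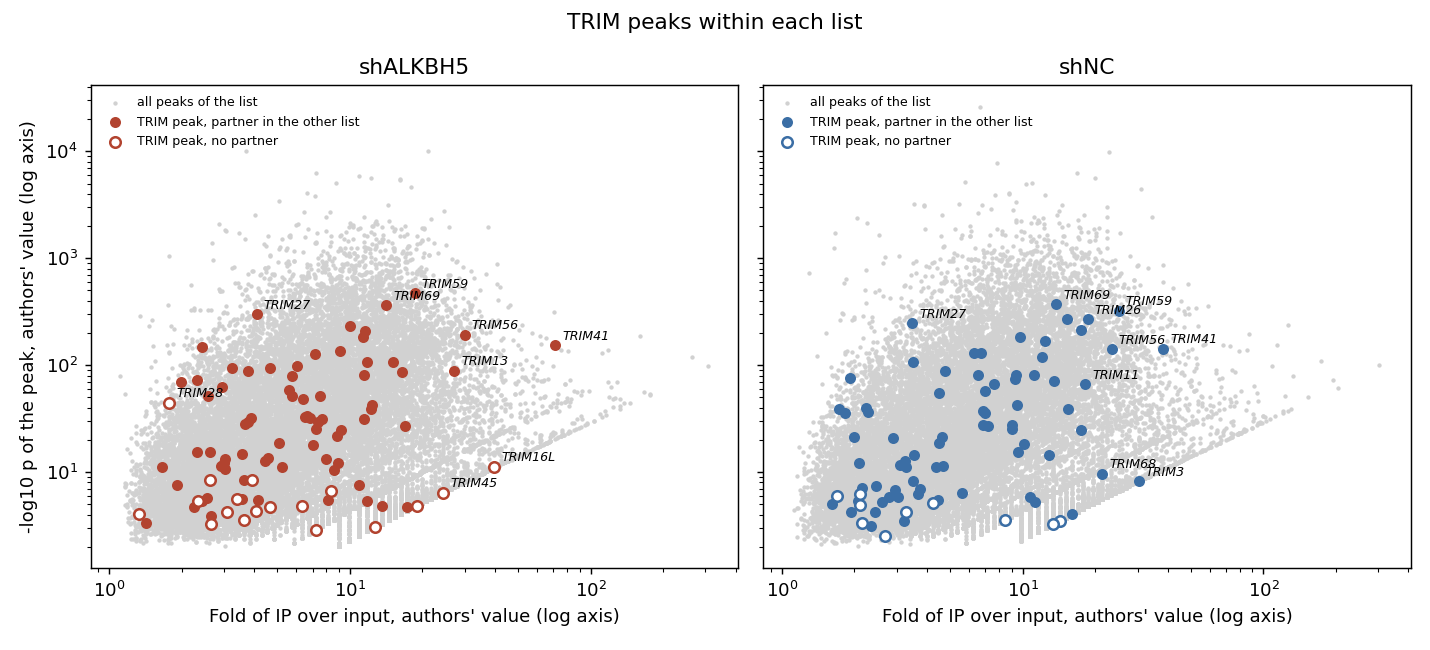
Fold of IP over input (horizontal, log axis) against -log10 p of the peak (vertical, log axis), both the authors' values, for all peaks (grey; those without a readable p left out) and TRIM peaks (coloured; open where no partner exists), with shALKBH5 left and shNC right. Partnerless TRIM peaks sit low in both panels apart from TRIM28 on the shALKBH5 side, which combines a fold of 1.77 with a log10 p of -44.6. The next strongest, TRIM16L at -11.2, is weaker than the median of the shALKBH5 list (-15.3).

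By C-terminal class, as sorted here, the SPRY class was the largest, with 19 of 36 RefSeq genes listed. All 19 were in both lists, with 48 shALKBH5 against 46 shNC peaks. TRIM16L, listed for shALKBH5 alone, has a SPRY domain in its description but was sorted with the proteins without a RING. TRIM16, also without a RING, was kept in the SPRY class. That all 19 were in both lists therefore depends on this sorting. Another 7 RefSeq genes, none with a listed peak, were in no class, among them TRIM43B and TRIM64B. The 36 may therefore not be a full SPRY total. SPRY domains bind the ligase's target, such as viral capsids or antibody. Of the 54 sites of this class, 38 were shared, 9 belonged to shALKBH5 alone and 7 to shNC alone. TRIM21, the cytosolic antibody receptor, had a single peak with the same borders in both lists, at chromosome 11, 4384956 to 4385757, ending 59 bp before the gene end. Its fold was 9.11 in the shALKBH5 list and 12.4 in the shNC list, with log10 p values of -137 (shALKBH5) and -169 (shNC). Both lists therefore placed it among their strong peaks, above 88.0% of the shALKBH5 peaks and 89.8% of the shNC peaks by p.

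TRIM38, a restraint on Toll-like receptor and tumour necrosis factor signalling, had 4 shared sites, covering 1562 bases in each list. Its strongest site by p, ending at 25983612 on chromosome 6, had folds of 7.18 in the shALKBH5 list and 6.68 in the shNC list and log10 p values of -126 (shALKBH5) and -131 (shNC). The other TRIM38 sites had folds of 5.76, 3.57 and 6.39 in the shALKBH5 list and 6.55, 3.52 and 9.26 in the shNC list, with log10 p values of -78.7, -14.9 and -48.1 (shALKBH5) and -80.6, -14.5 and -73.8 (shNC). TRIM25, which ubiquitinates the RNA sensor RIG-I, had 3 shared sites, whose 3′ edges lay 4010, 3650 and 114 bp from the gene end in the shALKBH5 list and 4070, 3650 and 54 bp in the shNC list. Folds at TRIM25 were low, 2.95, 2.91 and 1.66 in the shALKBH5 list and 2.28, 2.16 and 1.99 in the shNC list, from 5′ to 3′. TRIM65, which ubiquitinates the RNA sensor encoded by IFIH1, also had 3 shared sites, with folds of 3.55, 4.68 and 5.57 in the shALKBH5 list and 3.67, 4.75 and 4.5 in the shNC list. Its first peak is the one printed above, whose edge lay at -22 bp from the gene start in both lists.

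TRIM26, a ligase of interferon signalling in the major histocompatibility complex region, had 4 shALKBH5 peaks and 3 shNC peaks. Its largest peak was spliced into 3 blocks and had a fold of 11.3 with a log10 p of -185 in the shALKBH5 list, against 18.6 and -270 in the shNC list. The peak at its start, with blocks at 30213305 to 30213397 and 30204678 to 30204765, had a fold of 2.63 with a log10 p of -8.47 and stood in the shALKBH5 list alone. The remaining TRIM26 peaks were shared, at 30198762 with a fold of 3.24 and log10 p -93.6 in the shALKBH5 list, against 3.5 and -107 in the shNC list, and near the gene end with 2.57 and -51.8 in the shALKBH5 list, against 2.24 and -39.5 in the shNC list. TRIM39, a neighbour that stabilises a proapoptotic protein, had 5 shALKBH5 peaks and 3 shNC peaks. Its strongest peak had folds of 15.1 in the shALKBH5 list and 11.1 in the shNC list, log10 p values of -107 (shALKBH5) and -81.8 (shNC), and lay at 30341811. The 2 partnerless TRIM39 peaks, at 30327401 to 30327581 and 30329432 to 30329521, had folds of 8.37 and 2.34 and log10 p values of -6.59 and -5.37 in the shALKBH5 list. Its peak at the start had a fold of 7.24 and log10 p -25.3 in the shALKBH5 list, against 4.63 and -21.3 in the shNC list, and the one at the gene end had 2.66 and -3.84 in the shALKBH5 list, against 3.74 and -6.93 in the shNC list. The start peak shared bases with peaks named HCG18, an antisense neighbour, and the sources used here do not state whether the libraries kept strand. The peaks at 30329432 and 30341811 shared bases with peaks named TRIM39-RPP21, a read-through gene on the same strand as TRIM39, so reads there cannot be assigned to either gene alone.

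TRIM41, a ligase for protein kinase C, had the highest fold of the family in both lists, 71 in the shALKBH5 list and 38.2 in the shNC list, above 99.7% (shALKBH5) and 98.4% (shNC) of all peaks. That peak spanned 900 bases in the shALKBH5 list and 960 in the shNC list, both ending at 181224566 on chromosome 5, and began 386 bp (shALKBH5) and 326 bp (shNC) from the gene start. Its log10 p was -154 in the shALKBH5 list and -143 in the shNC list. A second shared TRIM41 site, ending 1048 bp before the gene end, had folds of 3.68 (shALKBH5) and 7.62 (shNC) and log10 p values of -28.2 (shALKBH5) and -66.2 (shNC). A pair of further peaks, at 181230772 to 181230922 and 181232361 to 181232481, stood only in the shNC list with folds of 2.68 and 8.47 and log10 p values of -2.5 and -3.54. TRIM4, which also ubiquitinates RIG-I, likewise had 2 shNC-only peaks, with a fold of 1.69 and log10 p -5.92 near its start and 2.11 and -4.93 toward its end. Its 3 shared peaks had folds of 11.8, 7 and 2.62 in the shALKBH5 list and 3.21, 9 and 2.88 in the shNC list. Their log10 p values were -5.31, -18 and -15.5 in the shALKBH5 list and -3.47, -25.3 and -21 in the shNC list.

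TRIM5, the factor that restricts retroviral capsids, had 3 shALKBH5 peaks and 1 shNC peak. Its shared site had a fold of 10.9 with a log10 p of -7.54 in the shALKBH5 list, against 8.47 and -3.54 in the shNC list. The partnerless TRIM5 peaks had folds of 4.65 and 3.62 with log10 p values of -4.73 and -3.53. TRIM62, a regulator of cell polarity, and TRIM72, a muscle protein of membrane repair, stood in both lists but at different sites. TRIM62 had a peak at 33147105 with a fold of 2.64 with a log10 p of -3.3 in the shALKBH5 list and another at 33145611 with 4.26 and -5.17 in the shNC list. TRIM72 had a peak at 31224893 with a fold of 7.24 with a log10 p of -2.88 in the shALKBH5 list and another at 31224265 with 13.4 and -3.25 in the shNC list. All 4 of these peaks were weak by p. With lists of equal length by p, TRIM62 and TRIM72 stood in the shNC list alone. That setting removes peaks from the longer shALKBH5 list only, so it can move genes in this direction alone.

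TRIM69, a ligase with antiviral and spindle-associated roles, had 1 of the strongest peaks of the family by p at 44731368 on chromosome 15, with a log10 p of -362 in the shALKBH5 list and -371 in the shNC list. The folds of that TRIM69 peak were 14.1 (shALKBH5) and 13.8 (shNC). It lay 5′ of the RefSeq span of TRIM69 (44736528 to 44767827), with its edge at -5160 bp from the gene start, and no peak of another gene shared its bases. Partnerless TRIM69 peaks of 91 bases lay at 44729078 in the shALKBH5 list (fold 4.07, log10 p -4.3) and at 44732417 in the shNC list (fold 2.11, log10 p -6.26). A shared TRIM69 peak near the gene end had a fold of 13.6 and log10 p -4.81 in the shALKBH5 list, against 16.1 and -4.01 in the shNC list. TRIM27, a ligase first known as a fusion partner of the RET kinase, had 1 shared peak at 28904228 with low folds of 4.1 (shALKBH5) and 3.47 (shNC) but log10 p values of -298 in the shALKBH5 list and -246 in the shNC list. TRIM47 also had low folds, at 3 shared sites. From 5′ to 3′ its peaks had folds of 3.03, 2.33, 2.44 and 1.99 in the shALKBH5 list and 3.08, 1.82, 1.91 and 1.72 in the shNC list. Their log10 p values were -10.7, -73.1, -147 and -70.1 in the shALKBH5 list and -11.6, -35.5, -75.1 and -38.6 in the shNC list, with the last 2 peaks of each overlapping.

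The other SPRY members had shared sites only. TRIM11, which promotes degradation of misfolded proteins, had 3, and its spliced peak of 1346 bases in the shALKBH5 list and 1317 in the shNC list had folds of 16.4 (shALKBH5) and 18.1 (shNC). TRIM68 had 2, with folds of 7.94 and 4.58 in the shALKBH5 list and 21.4 and 9.59 in the shNC list, and log10 p values of -13.2 and -13.5 (shALKBH5) and -9.67 and -15.3 (shNC). TRIM58, an erythroid ligase, had 1 with folds of 4.14 (shALKBH5) and 5.61 (shNC), and TRIM35 had 1 with folds of 3 (shALKBH5) and 4.49 (shNC). In the class that adds a COS box, which binds microtubules, and a fibronectin domain, TRIM36 was the 1 gene of 4 listed. Its peak had a fold of 17 with a log10 p of -26.9 in the shALKBH5 list, against 15.4 and -38.5 in the shNC list.

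**Figure D3:**
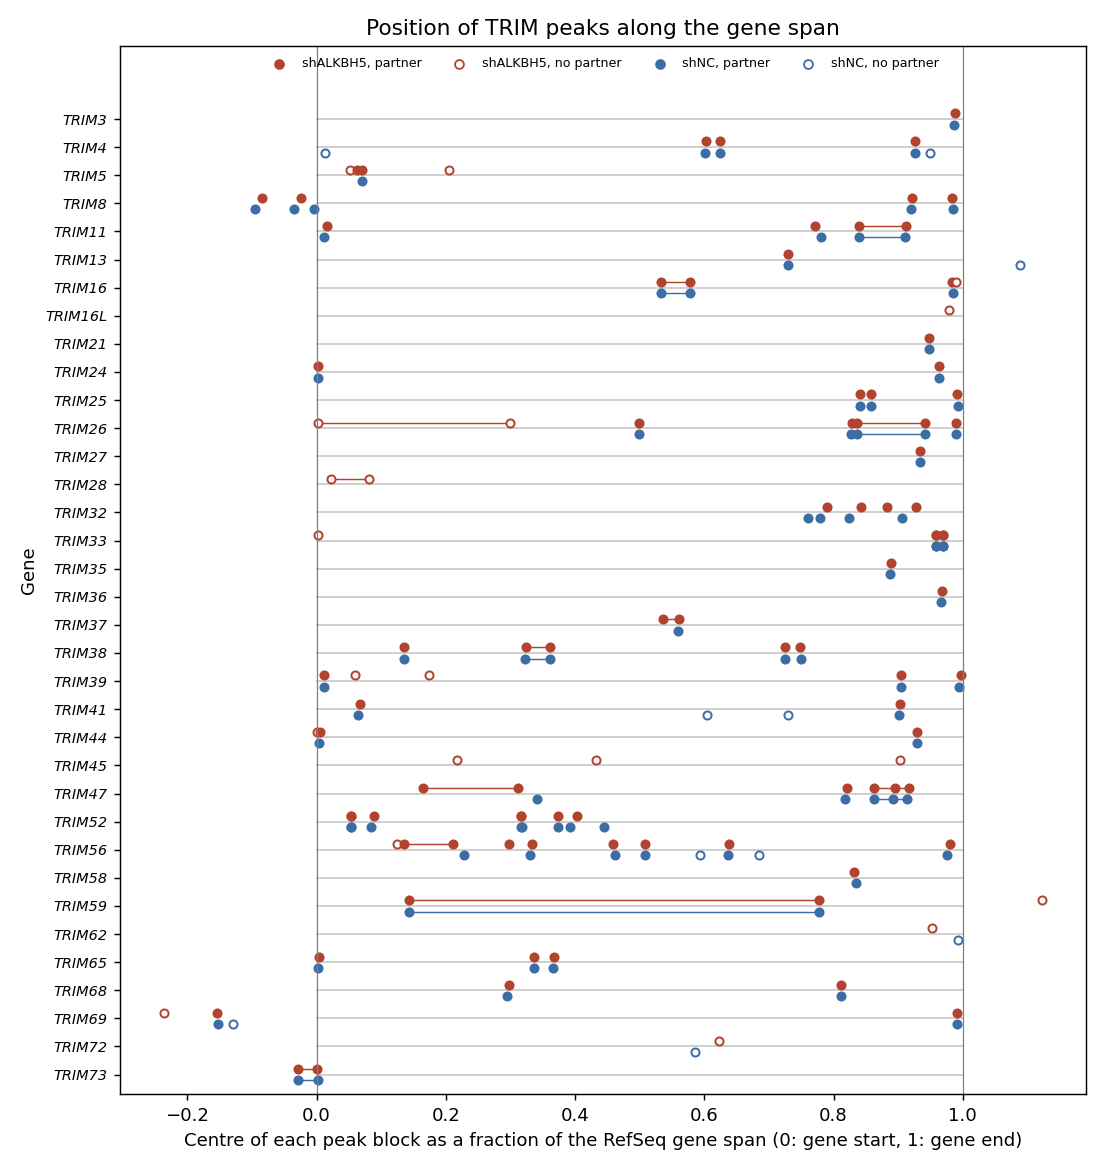
Centre of each peak block as a fraction of the RefSeq gene span (0 is the gene start and 1 the gene end, introns included), with shALKBH5 above shNC for each gene, lines joining the blocks of 1 spliced peak and open circles for peaks without a partner. The strongest TRIM69 peak lies left of 0 in both lists, and a peak each of TRIM13 (shNC) and TRIM59 (shALKBH5) lies right of 1.

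The 4 listed ligases without a named C-terminal domain held 20 shALKBH5 and 22 shNC peaks. TRIM56, which acts against RNA viruses and in cytosolic DNA sensing, had 8 peaks in each list on chromosome 7 (101085481 to 101097967, ENSG00000169871). They covered 3573 bases in the shALKBH5 list and 3932 in the shNC list. Its main peak had a fold of 30 with a log10 p of -192 over 1619 bases in the shALKBH5 list, against a fold of 23.4 with a log10 p of -141 over 2008 bases in the shNC list. The shNC peak spanned what the shALKBH5 list gave as a pair of peaks, the second with a fold of 5.73 and log10 p -51.5, so equal counts do not mean equal sites. Of the 9 sites of TRIM56, 6 were shared, 1 belonged to shALKBH5 alone (fold 3.09, log10 p -4.23) and 2 to shNC alone (folds 3.27 and 2.16, log10 p -4.21 and -3.37). At the 5 shared sites 3′ of the main peak, folds were 8.84, 9.18, 3.79, 6.83 and 2.54 in the shALKBH5 list and 4.68, 10.1, 6.97, 9.51 and 2.95 in the shNC list. Their log10 p values were -21.8, -24.7, -29.1, -31.8 and -5.73 in the shALKBH5 list and -11.4, -18.4, -57.9, -42.8 and -6.82 in the shNC list.

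**Figure D4:**
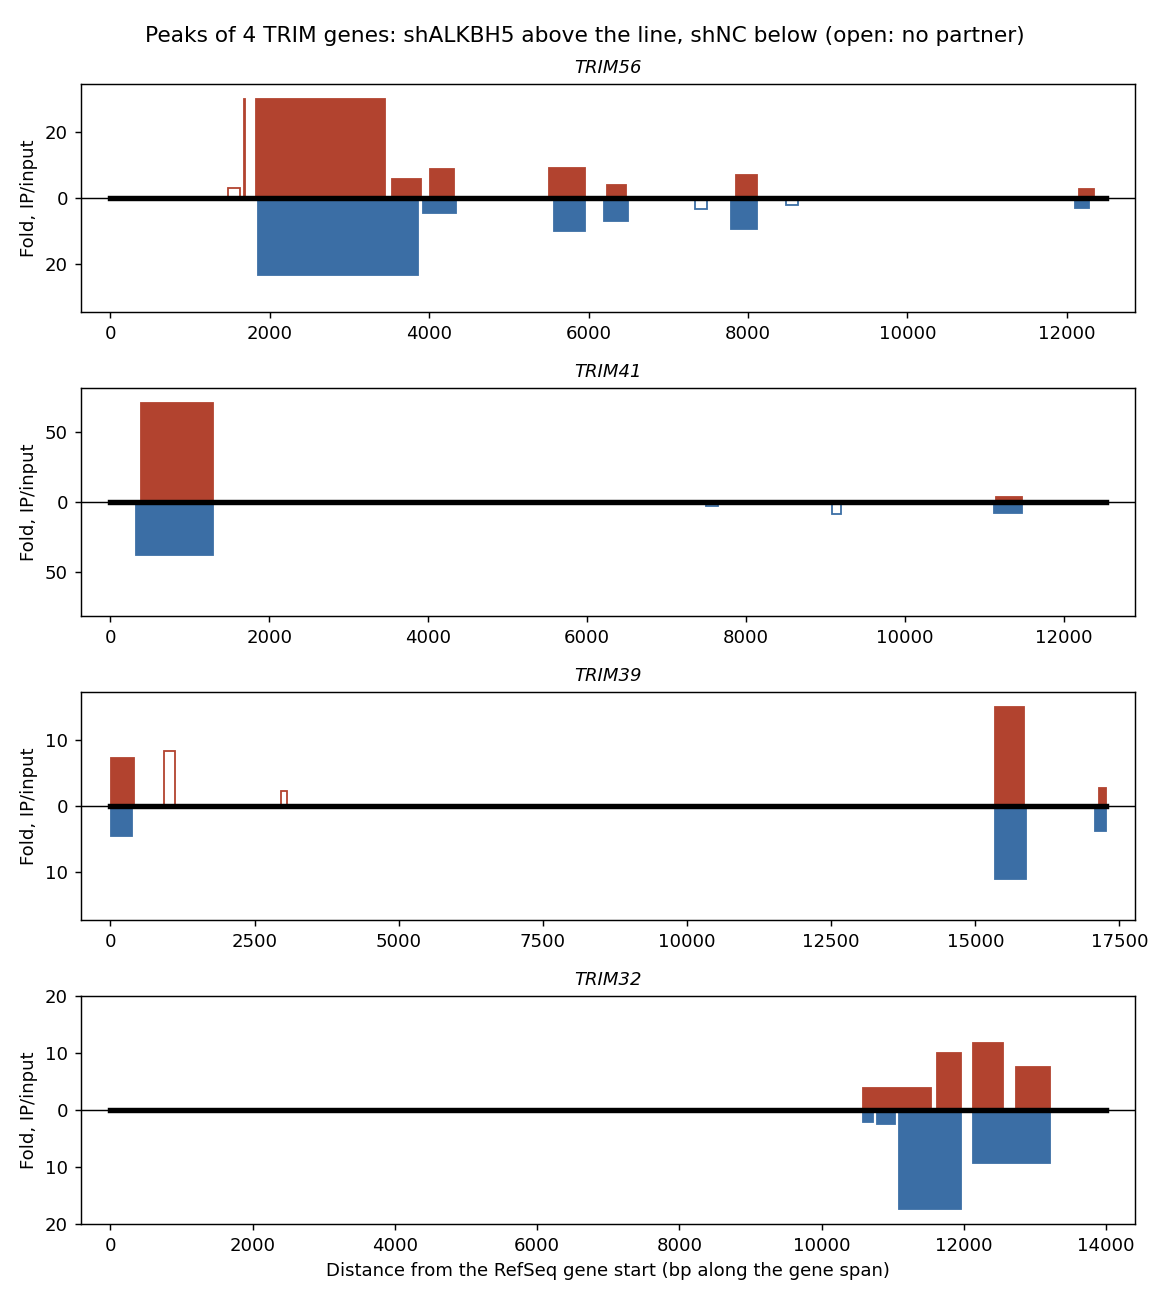
Peaks of TRIM56, TRIM41, TRIM39 and TRIM32 by distance from the RefSeq gene start (horizontal, bp), with bar width the peak's blocks and bar height its fold of IP over input (vertical), shALKBH5 above the line and shNC below, open where there is no partner. The main TRIM56 peak has a fold of 30 above and 23.4 below, and the TRIM41 peak near the start has 71 above and 38.2 below.

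TRIM52, a short ligase with an expanded RING, was listed with 7 peaks in the shALKBH5 list and 8 in the shNC list, yet these fell into 4 sites, all shared. At the first site, near the start, overlapping peaks had folds of 7.36 and 7.67 in the shALKBH5 list and 6.87 and 6.98 in the shNC list, with log10 p values of -29.2 and -31.1 (shALKBH5) and -36.9 and -35.5 (shNC). The second site had a fold of 3.62 and log10 p -8.35 in the shALKBH5 list, against 3.02 and -5.89 in the shNC list. The third had folds of 6.51 and 6.63 in the shALKBH5 list and 6.85 and 7.18 in the shNC list, with log10 p values of -32.5 and -33.4 (shALKBH5) and -27.5 and -27.1 (shNC). The last and broadest site had folds of 12.2 and 11.5 in the shALKBH5 list and 2.35, 8.99 and 17.4 in the shNC list, with log10 p values of -38.6 and -31.1 (shALKBH5) and -3.16, -27.7 and -25 (shNC). Peaks at its last 2 sites shared bases with peaks named CTC-338M12.4. TRIM8, a regulator of NF-κB and STAT signalling, had 4 peaks in the shALKBH5 list and 5 in the shNC list, at 4 shared sites. Its strongest site by p, toward the gene end, had a fold of 3.76 with a log10 p of -88.1 in the shALKBH5 list, against 6.26 and -131 in the shNC list. Its 2 sites at or before the start shared bases with peaks named AL391121.1. There 1 shALKBH5 peak of 958 bases (fold 5.07, log10 p -18.6) met 2 shNC peaks of 241 and 180 bases (folds 2.43 and 2.78, log10 p -4.19 and -5.82). The TRIM8 site further 5′ had its highest folds, 17.2 with log10 p -4.73 in the shALKBH5 list and 11.2 with -5.26 in the shNC list. The site nearest the gene end had 1.92 and -7.61 in the shALKBH5 list, against 3.24 and -12.6 in the shNC list.

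TRIM73 had 1 shared peak, with a fold of 8.6 in the shALKBH5 list and 10.7 in the shNC list. TRIM73 has near-identical copies in the same chromosome region and its peak shared bases with peaks named STAG3L1, so its assignment is uncertain. Of the B-box proteins without a RING, TRIM44, which resembles a deubiquitinating enzyme, had 3 shALKBH5 peaks and 2 shNC peaks. Its strongest peak had a fold of 6.02 with a log10 p of -97.2 in the shALKBH5 list, against 9.71 and -185 in the shNC list. The partnerless TRIM44 peak began 60 bp from the gene start with a fold of 3.39 with a log10 p of -5.62 in the shALKBH5 list. The remaining TRIM44 site, at 35806910 in the shALKBH5 list, had a fold of 2.33 and log10 p -15.5 there, against 2.08 and -12.1 in the shNC list.

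The class with a PHD finger and a bromodomain holds nuclear corepressors, and 3 of its 4 RefSeq genes were listed. TRIM24, on chromosome 7, had shared peaks at its start and toward its end. The start peak had a fold of 12.4 with a log10 p of -42 in the shALKBH5 list, against 3.29 and -11.2 in the shNC list, and covered 390 bases (shALKBH5) and 270 (shNC). The other TRIM24 peak had folds of 11.6 (shALKBH5) and 15.3 (shNC) and log10 p values of -209 (shALKBH5) and -269 (shNC). TRIM33, which works in transforming growth factor signalling, had a chain of shared peaks toward its end, the strongest with folds of 11.5 (shALKBH5) and 12 (shNC) and log10 p values of -80.4 (shALKBH5) and -118 (shNC). The other unspliced TRIM33 peak of that chain had a fold of 2.26 and log10 p -4.68 in the shALKBH5 list, against 4.46 and -5.5 in the shNC list, and the spliced one had 2.43 and -5.37 in the shALKBH5 list, against 2.61 and -5.23 in the shNC list. At its start TRIM33 had a peak of 210 bases in the shALKBH5 list alone, with a fold of 3.92 with a log10 p of -8.39. TRIM66 had no listed peak.

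Of the NHL class, whose propeller domain binds RNA or protein, 2 of 4 genes were listed, both at shared sites only. TRIM32, mutated in a limb-girdle muscular dystrophy, had 4 peaks in each list on chromosome 9, all from 116697881 to 116700520. The borders divided that stretch differently. The shALKBH5 list had a peak of 961 bases (fold 3.89) and 1 of 331 bases (fold 10) where the shNC list had 151, 241 and 871 bases (folds 2.06, 2.47 and 17.5). Their log10 p values were -32.2 and -233 in the shALKBH5 list and -5.33, -7.39 and -215 in the shNC list. Further 3′, the shALKBH5 list had 421 and 481 bases (folds 11.8 and 7.5) where the shNC list had a single peak of 1081 bases (fold 9.37), with log10 p values of -107 and -51.1 (shALKBH5) and -81.5 (shNC). Peaks within each list that lay within 100 bp of each other joined into 82 shALKBH5 and 74 shNC peaks over the family, and the partnerless ones then numbered 17 (shALKBH5) and 10 (shNC). TRIM3, a brain-enriched ligase, had 1 shared peak with a fold of 8.14 with a log10 p of -5.42 in the shALKBH5 list, against 30.3 and -8.18 in the shNC list.

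Both ligases anchored in membranes were listed. TRIM13, which sits in the endoplasmic reticulum, had a peak of 1048 bases with unchanged borders between the lists. It had a fold of 27.1 with a log10 p of -88.9 in the shALKBH5 list against 13.5 and -70.8 in the shNC list. Another TRIM13 peak, at 50020331 beyond the RefSeq end of the gene, stood only in the shNC list (fold 14.3, log10 p -3.5) and shared bases with a peak named KCNRG. TRIM59 had the strongest p of the family in the shALKBH5 list, -473 on the log10 scale, against -322 in the shNC list. Its peak had the same span in both lists, 160438156 to 160447748 on chromosome 3, with 1048 bases in 2 blocks, folds of 18.6 (shALKBH5) and 25 (shNC), and bases in common with peaks named AC079594.2. A further TRIM59 peak lay beyond the RefSeq end of the gene, at 160433701 to 160433820, in the shALKBH5 list alone, and its fold of 1.33 was among the lowest of that list (above 0.353% of peaks) with a log10 p of -4.06. TRIM37, a centrosome regulator with a MATH domain, had 1 shared site with a fold of 3.03 with a log10 p of -13.2 in the shALKBH5 list, against 1.93 and -4.27 in the shNC list.

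A peak was placed when its span overlapped the RefSeq span of its gene. The 4 shALKBH5 and 5 shNC TRIM peaks wholly outside that span were left out, the strongest TRIM69 peak of each list among them. Across the family, 13 of 88 placed shALKBH5 peaks (14.8%, exact 95% interval 8.11 to 23.9%) and 11 of 80 placed shNC peaks (13.8%, 7.07 to 23.3%) lay at the gene start. That means a placed peak with its 5′ edge before the RefSeq start or under 500 bp past it. All placed peaks gave 14.5% (shALKBH5) and 11.4% (shNC). Peaks at the gene end, under 1000 bp from it, numbered 17 in the shALKBH5 list (19.3%; 22.1% of all placed peaks) and 16 in the shNC list (23.0% of all placed peaks). Of the partnerless TRIM peaks at the start, 4 were in the shALKBH5 list, at TRIM26, TRIM28, TRIM33 and TRIM44, and 1 in the shNC list, at TRIM4. Over all genes, 27.1% of partnerless placed shALKBH5 peaks and 12.7% of partnerless placed shNC peaks lay there. With the limit at 250 bp, start peaks of the family numbered 10 in the shALKBH5 list and 6 in the shNC list, with no share over all peaks beside them.

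The borders of the family's peaks moved in steps. In 41 pairs of unspliced TRIM peaks that had only each other as partner, the borders were identical in 6 pairs, at TRIM13, TRIM21, TRIM26, TRIM38, TRIM4 and TRIM65. Another 19 pairs had 1 border in common and 16 had none. Identical borders aside, every border of the 82 differed by a multiple of 30 bases within 1 base. Over all 82, identical ones included, the median difference was 30 bases and the largest 180. The median TRIM peak covered 271 bases in the shALKBH5 list and 269 in the shNC list, close to 269 (shALKBH5) and 270 (shNC) over all peaks. Spliced peaks made up 14 of 92 TRIM peaks in the shALKBH5 list (15.2%; 17.9% of all) and 8 of 85 in the shNC list (9.41%; 17.4% of all). The median fold of TRIM peaks was 5.75 in the shALKBH5 list and 4.75 in the shNC list, below the 6.64 (shALKBH5) and 6.54 (shNC) of all peaks. Their median log10 p was -18.3 (shALKBH5) and -18.4 (shNC), and that of all peaks was -15.3 (shALKBH5) and -15.8 (shNC).

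Genes that work with TRIM proteins were counted in the same way, and each count is to be read against the shares over all genes with a peak, 83.0% listed for both conditions, 11.5% for shALKBH5 alone and 5.5% for shNC alone. Of 32 E2 ubiquitin-conjugating enzyme genes, which hand ubiquitin to RING ligases, 29 had a peak. Peaks stood in both lists for 25, in the shALKBH5 list alone for 3, among them UBE2Q2 (fold 2.08) and UBE2S (fold 1.6), and in the shNC list alone for UBE2D1 (fold 1.96), near those shares. Ranked by the higher fold of either list, UBE2Q1 and UBE2E2 came first among these genes. UBE2Q1 had a top fold of 27.1 in the shALKBH5 list and 20 in the shNC list, and UBE2E2 had 10.4 (shALKBH5) and 25.9 (shNC). Within the shALKBH5 list several others, such as UBE2N (16.3), stood above UBE2E2. Of 16 genes of RNA and DNA sensing, 13 had a peak, of which 12 had peaks in both lists and EIF2AK2, the antiviral kinase PKR, had 1 in the shALKBH5 list alone with a fold of 2.39. Within it IRF3, an interferon regulatory factor, had top folds of 29 in the shALKBH5 list and 35.7 in the shNC list, and DDX58, which encodes RIG-I, had 5.13 (shALKBH5) and 25 (shNC). Of 13 partners of TRIM28 in silencing, all of them listed, 11 were in both lists, the heterochromatin gene CBX3 had 1 in the shALKBH5 list alone (fold 3.03) and UHRF1 had peaks in the shNC list alone (top fold 12.5). CHD3, a chromatin remodeller, had a top fold of 50.7 in the shALKBH5 list and 126 in the shNC list, and MORC2 had 22.6 (shALKBH5) and 15.8 (shNC). Of 9 relatives of the family under other names, PML, MID1, CMYA5 and RNF207 had peaks, all 4 in both lists. PML, which builds nuclear bodies, had 6 shALKBH5 peaks and 5 shNC peaks with top folds of 10.7 (shALKBH5) and 7.91 (shNC), and RNF207 had top folds of 25.3 (shALKBH5) and 2.11 (shNC). Of 8 plasma cell genes, the lineage of the labelled line, 6 were listed for both conditions (CD38, IRF4, MZB1, PRDM1, SDC1 and XBP1) and SLAMF7 and TNFRSF17 for neither. Of 10 markers of T, myeloid, stromal and endothelial cells, PECAM1 had peaks in both lists and CD8A had 1 in the shALKBH5 list alone. The lowest log10 p was -4.84 (shALKBH5) and -13.3 (shNC) at PECAM1, and -3.12 at CD8A. The folds above stand without p, which varied widely. The lowest log10 p was -10.1 (shALKBH5) and -6.86 (shNC) at UBE2E2, -4.78 (shALKBH5) and -8.0 (shNC) at DDX58. At RNF207 it was -16.9 (shALKBH5) and -2.76 (shNC), and at UBE2Q1 -4640 (shALKBH5) and -5610 (shNC).

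Among the 40 RefSeq TRIM genes without a listed peak were TRIM22, TRIM14, TRIM34 and TRIM6 of antiviral defence, TRIM23 with its ARF domain, TRIM2 and TRIM71 of the NHL class, and TRIM54, TRIM55 and TRIM63 of striated muscle. No list here tells whether their RNA was present.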

How the data were processed

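Per the labels, poly(A) RNA of each condition gave 1 anti-m6A IP and 1 input library. Tools named by the submitters are HOMER 4.9.1, BWA 0.7.12 and fastp 0.19.11, and the build is hg38 (submitters' processing notes, which give no roles). The peak caller and the scaling of IP to input were not given in the sources used here. For each condition the authors deposited a single peak list. Per the file headers, each peak has blocks, a gene, and a fold, the ratio of IP to input. The authors' p-value stands in the column headed score, and the deposited logarithms (log10) of p and FDR pass -100 and were treated as a score.

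Peaks were partners when blocks shared at least 1 base, strand ignored (bedtools 2.31.1, Python 3.11.15, pandas 2.3.3, SciPy 1.17.1). Gene positions and start sequences came from RefSeq GRCh38.p14, in which all 35 genes were found by symbol, and distances include introns. Intervals are exact (Clopper-Pearson) 95% binomial intervals, whereas the limit for a count of 0 is approximate, 3 counts over the number of genes. Partner calls were tested on simulated unspliced peaks set apart from each other within a list, so spliced peaks and overlapping rows were not covered. Every member with a peak was named. Fold and p of each peak were given for members in 1 list, with partnerless peaks, with 4 or more peaks, or among the 5 highest by fold or 5 lowest by p in a list. The members, lists and rules were chosen with earlier results of these data known. The values of 1 gene of the E2 list are not reported here.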

Additional observations from a re-analysis of the deposited data

How the results depend on the processing

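The counts were repeated with a fold limit of 2 times the lowest fold of each list, with lists of equal length by p, with overlap of 50%, with a window of 200 bp, on the same strand, with peaks within 100 bp merged and with a start limit of 250 bp. Of 48 values under these alternatives for 19 counts, 42 stayed within 1.5 times the main count and 6 moved further. Shares over all peaks or genes were not set beside these counts. With equal lengths, 2 TRIM genes stood only in the shNC list (TRIM62 and TRIM72) instead of 0. Equal lengths cut only the longer shALKBH5 list, which kept 87 TRIM peaks, while the shNC list kept all 85. With overlap of 50%, partnerless TRIM peaks of the shNC list numbered 18 instead of 10, and those of the shALKBH5 list 26 instead of 18. With 250 bp, start peaks of the shNC list numbered 6 instead of 11. Under the fold limit, genes only in the shALKBH5 list numbered 3 instead of 1 among the silencing partners of TRIM28, 0 instead of 3 among the E2 enzymes and 1 instead of 0 among TRIM relatives under other names. The TRIM genes only in the shALKBH5 list were then still 3, but TRIM37 had taken the place of TRIM28, since the shNC peak of TRIM37 lay under the limit. The other causes were not tested. No paired analysis was possible because each condition has 1 peak list. Depth is unknown, so a missing peak may reflect thin coverage.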
